A study of Mus musculus with 12 samples.

Results

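The 10 genes described here belong to the BCL2 family, the proteins that decide at the mitochondrial surface whether a cell enters apoptosis. They were taken by name from the 54532 genes counted: the anti-apoptotic genes Bcl2, Bcl2l1 and Mcl1, the effectors Bax and Bak1, and the BH3-only genes Bcl2l11, Bbc3, Pmaip1, Bid and Bmf. All 10 were found and all 10 passed the filter on low counts, which kept 15650 genes. The RNA came from 12 mouse tumours of the type malignant peripheral nerve sheath tumour, a sarcoma that arises from nerve sheath cells, with the strain labelled C57B/6 and the genotype WT. All 12 had been started with adenovirus carrying Cas9 aimed at Nf1 and at a gene spelled Cdk2na in the labels, which is read here as Cdkn2a. In the terminal combination group, 4 tumours were harvested at the terminal stage under daily gavage with palbociclib (100 mg/kg), which blocks CDK4/6, and mirdametinib (1 mg/kg), which blocks MEK. The 4 regressing tumours received the same drugs and had the harvest time labelled as regressing. The 4 vehicle tumours received the vehicle and were harvested at the terminal stage. Age and sex are not given, and the labels do not say whether tumours came from separate mice, so p-values measure only the spread between these samples. Drug and harvest stage cannot be told apart where regressing tumours are set against vehicle tumours.

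As background, BCL2, BCL-XL (the product of Bcl2l1) and MCL1 hold apoptosis in check by binding the other classes. BAX and BAK, the product of Bak1, open pores in the outer mitochondrial membrane once released or activated, and cytochrome c then escapes and switches on caspases. BH3-only proteins carry the stress signal: BIM (from Bcl2l11) and BMF respond to lost growth factor or ERK signalling, PUMA (from Bbc3) and NOXA (from Pmaip1) are p53 targets, and BID links death receptors to mitochondria. ERK signalling marks BIM for destruction and favours MCL1 stability. Much of this control acts on protein, which RNA counts do not show.

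Libraries held 13194699 to 22639625 counted reads. A count of 0 allowed up to 0.128 to 0.231 CPM (counts scaled to the TMM-adjusted library size), for counting error only. Mesenchymal transcripts were abundant: 8 mesenchymal tumour and fibroblast markers, which do not tell these cells apart, summed to 14790 to 28870 CPM. Muscle sums exceeded them in regressing 1 and 4 and terminal combination 2. The 8 Schwann lineage markers summed to 9.79 to 57.2 CPM. Sox10, the defining factor of that lineage, was at 0 counts in terminal combination 1 and in vehicle 2 and 4. Mbp, of the same list, was at 5.375 CPM or above in every library. Of 7 Schwann markers tested, an edgeR p under 0.05 held for 5 higher and 1 lower in regressing than vehicle tumours. For terminal combination against vehicle it held for 4 higher and 1 lower. Markers of host tissue varied widely between tumours. None of the muscle, adipocyte, blood and lymphocyte markers passed the adjusted edgeR test in any comparison. Nor did any of the 15650 genes tested. Unadjusted, an edgeR p under 0.05 with a higher level in regressing than vehicle tumours held for 7 of 10 muscle and 7 of 8 adipocyte markers. It also held for 6 of 6 B and plasma cell, 3 of 8 T cell and 4 of 5 red blood cell markers tested. The filter on low counts kept 6 of the 8 listed B and plasma cell markers. A marker low elsewhere can pass that filter through the regressing group alone, so the 6 of 6 carries no test. The share of all genes, in either direction, was 12.7%. For terminal combination against vehicle these counts were 6, 3, 0, 0 and 4, beside 5.94%. Summed over 10 skeletal muscle markers, the range was 2935 to 36940 CPM in terminal combination, 4343 to 58540 CPM in regressing and 619 to 9939 CPM under vehicle, with regressing 1 (58540), terminal combination 2 (36940) and regressing 4 (33480) highest. Over 8 B and plasma cell markers it was 38.8 to 83.1, 182 to 1665 and 44.9 to 214 CPM in terminal combination, regressing and vehicle tumours, and over 8 T cell markers 22.1 to 93.6, 36.3 to 449 and 43.4 to 81.7 CPM. Over 8 adipocyte markers the sums were 84.2 to 572 CPM in terminal combination, 255 to 2260 CPM in regressing and 17.9 to 136 CPM under vehicle, so that regressing tumours lay above all vehicle tumours. Over 6 red blood cell markers they were 351 to 911, 78.2 to 1919 and 55.4 to 342 CPM in terminal combination, regressing and vehicle tumours. Over 8 proliferation markers they were 226 to 809, 314 to 780 and 712 to 1110 CPM in those groups, and 8 of 8 had negative log2 differences from vehicle in each treated group. The part of these tissues in the results on the family was not tested beyond the refits for muscle. In such bulk samples fewer cells of a type and less RNA per cell cannot be told apart.

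Adjusted for exon length as FPKM, a level that can be set across genes, the family spanned a wide range with an anti-apoptotic gene at each end. Mcl1 was highest at 57.4 ± 15.7 FPKM (SD, n = 12) and Bcl2 lowest at 2.56 ± 1.09 FPKM. Between them came the effectors, with Bak1 at 38.7 ± 6.45 and Bax at 25.8 ± 3.21 FPKM, then Bcl2l1 at 11.7 ± 3.40 FPKM. The BH3-only genes followed at 7.25 ± 1.78 FPKM for Bcl2l11, 5.63 ± 2.40 for Bmf, 5.23 ± 2.02 for Bid, 2.81 ± 0.638 for Bbc3 and 2.80 ± 1.91 for Pmaip1. The upper part of this order held in nearly every tumour: Bak1 exceeded Bax, and Bax exceeded Bcl2l1, in 12 of 12, and Mcl1 exceeded Bak1 in 11 of 12. The lower part did not separate, since Bmf exceeded Bid in 6 of 12 tumours, Bbc3 exceeded Pmaip1 in 7 and Pmaip1 exceeded Bcl2 in 7. Exon length was the union over annotated transcripts, which understates the level of genes with long, rarely used exons, among them Bcl2 with 9157 bases.

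**Figure D1:**
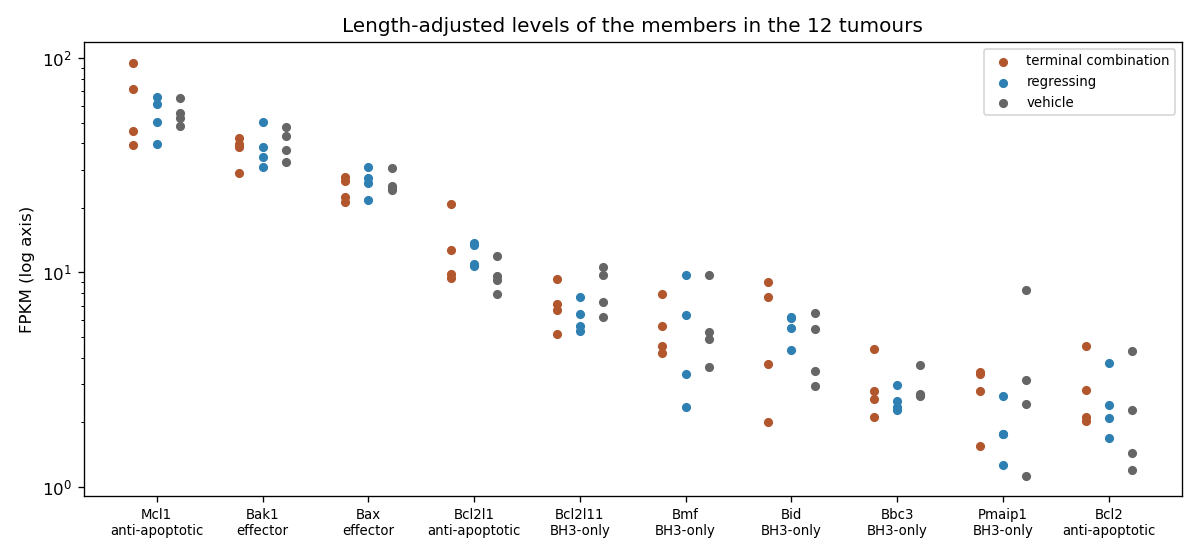
Level per exon length (FPKM, log axis) of the 10 genes in each tumour, ordered by mean over the 12 tumours; each point is a tumour, coloured by group. Mcl1, Bak1 and Bax stand above the other 7 genes, and the points of the 3 groups overlap for every gene.

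None of the 10 genes passed an adjusted p under 0.05 in edgeR's quasi-likelihood test in any of the 3 comparisons, and none did in DESeq2 or limma voom. Among all 15650 genes tested the edgeR share was 0% in each comparison, limma voom also called 0, and the DESeq2 share, of the 21932, 17763 and 18277 genes it gave an adjusted p, was 0.0502% for terminal combination against vehicle, 2.79% for regressing against vehicle and, between the treated groups (terminal combination over regressing), 0.449%. Without adjustment, 5.94%, 12.7% and 7.02% of all genes had an edgeR p under 0.05 in these comparisons, and 0 of the 10 did in each. The groups did not fully separate for any of the 10 either, against 2.5%, 7.64% and 3.9% of all genes. The median size of the log2 difference was 0.22, 0.17 and 0.15 over the 10 genes and 0.23, 0.30 and 0.25 over all genes. What the data give is therefore the level and the spread of each gene, and the interval of each difference. The comparisons share samples, so their values for a gene are not independent.

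**Figure D2:**
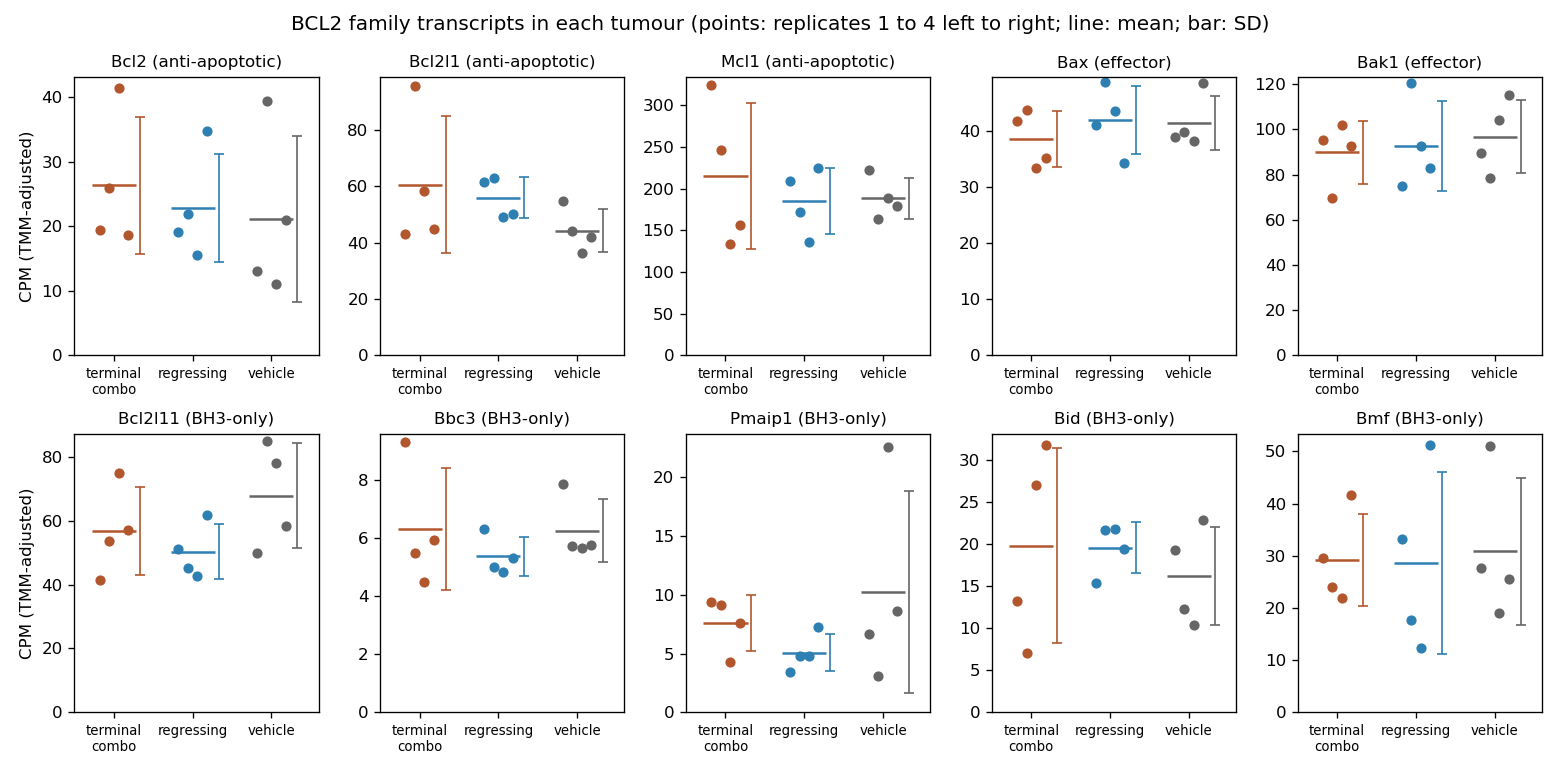
TMM-adjusted CPM of each gene in each tumour (points, replicates 1 to 4 from left to right), with the group mean (line) and SD (bar). The values of Bax and of Bak1 lie close together in all 12 tumours. Bcl2, Pmaip1, Bid and Bmf have a wider spread pooled over the groups, though Bid spans only 15.4 to 21.9 CPM in regressing tumours.

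Among the anti-apoptotic genes, Bcl2l1 (ENSMUSG00000007659, chr2:152780668-152831728, GRCm38, minus strand) encodes BCL-XL, and its intervals were wide. Its levels were 43.2, 95.6, 58.4 and 44.8 CPM in terminal combination replicates 1 to 4, 61.4, 62.9, 49.1 and 50.2 CPM in regressing replicates and 54.6, 44.2, 36.2 and 42.1 CPM in vehicle replicates. Terminal combination 2 stood far above the rest, and vehicle 1 lay within the range of both treated groups. The log2 difference was 0.45 (SE 0.246, 95% interval -0.09 to 0.99) for terminal combination against vehicle, where the edgeR adjusted p was 0.839. Without terminal combination 2 that difference was 0.14. For regressing against vehicle it was 0.34 (SE 0.245, -0.20 to 0.87, edgeR adjusted p = 0.582). Between the treated groups, terminal combination over regressing, it was 0.11 (SE 0.245, -0.42 to 0.65, edgeR adjusted p = 0.936). Terminal combination 2 was also the second highest library in muscle markers, and leaving out the 3 muscle-rich libraries (terminal combination 2, regressing 1 and regressing 4) gave a log2 difference between the treated groups of -0.21.

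Mcl1 (ENSMUSG00000038612, chr3:95658788-95663176, plus strand) is the short-lived member of its class. It was at 324, 246, 134 and 156 CPM in terminal combination, 209, 172.5, 136 and 225 CPM in regressing and 222, 164, 189 and 179.5 CPM in vehicle replicates 1 to 4. The terminal combination group held both the highest and the lowest tumour of the 12, with a 2.42-fold range between them. Its mean of 215 ± 87.3 CPM (SD, n = 4) compared with 185.5 ± 39.7 CPM in regressing and 188.5 ± 24.5 CPM under vehicle. The log2 difference from vehicle was 0.19 (95% interval -0.40 to 0.78) in terminal combination tumours and -0.02 (-0.61 to 0.56) in regressing tumours, with edgeR adjusted p of 0.936 and 0.973.

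Bcl2 (ENSMUSG00000057329, chr1:106538178-106714274, minus strand), the founding member, was at 19.4, 25.9, 41.4 and 18.6 CPM in terminal combination, 19.1, 21.95, 15.5 and 34.7 CPM in regressing and 13.1, 39.3, 10.98 and 20.9 CPM in vehicle replicates 1 to 4. Each group held a single tumour above 30 CPM: terminal combination 3, regressing 4 and vehicle 2. Lymphocytes express Bcl2. T cell markers summed to 449 CPM in regressing 4, the highest of all libraries, to 73.8 CPM in vehicle 2 and to 22.1 CPM, the lowest, in terminal combination 3. The part of lymphocytes in the Bcl2 level was not tested. Bcl2 was 1.25-fold (95% interval 0.662 to 2.36) the vehicle level in terminal combination tumours and 1.08-fold (0.573 to 2.05) in regressing tumours, with edgeR adjusted p of 0.931 and 0.92. The log2 difference of terminal combination from vehicle tumours, 0.32 over all 12 libraries, was 0.0143 without terminal combination 3 and 0.81 without vehicle 2. Without regressing 4 the log2 difference of regressing from vehicle tumours was -0.16, in place of 0.12.

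The effectors varied least. Bax (ENSMUSG00000003873, chr7:45461697-45466898, minus strand) was at 41.9, 43.8, 33.4 and 35.3 CPM in terminal combination, 41.1, 48.9, 43.7 and 34.4 CPM in regressing and 38.9, 39.95, 38.3 and 48.6 CPM in vehicle replicates 1 to 4. All 12 tumours lay within a 1.46-fold range. The pooled within-group SD of log2 CPM was 0.19, and only 7.66% of genes tested had a lower one, a share that also depends on counting noise. Its intervals were the narrowest of the 10: the fold difference was 0.931 (95% interval 0.739 to 1.17) for terminal combination against vehicle and 1.01 (0.805 to 1.28) for regressing against vehicle, so rises above 1.28-fold lay outside both.

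Bak1 (ENSMUSG00000057789, chr17:27019810-27029009, minus strand) was at 95.4, 69.8, 102 and 92.7 CPM in terminal combination, 74.8, 121, 92.8 and 83.1 CPM in regressing and 89.7, 78.4, 104 and 115 CPM in vehicle replicates 1 to 4. Its lowest values were those of terminal combination 2 and regressing 1, the libraries with the most muscle reads. The next lowest was vehicle 2 (78.4 CPM), which had the lowest muscle markers of all libraries (619 CPM). Muscle-rich regressing 4 (33480 CPM) lay above it at 83.1 CPM. With a muscle score as covariate the log2 difference of regressing from vehicle tumours was 0.19 in place of -0.06, without passing the test. The fold difference was 0.928 (95% interval 0.699 to 1.23) for terminal combination against vehicle and 0.958 (0.722 to 1.27) for regressing against vehicle. The gene overlaps Ggnbp1 on the opposite strand, which reached at most 57 counts in a library.

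Of the BH3-only genes, Bcl2l11 (ENSMUSG00000027381, chr2:128126038-128162547, plus strand) had the smallest p of the 10 genes, in regressing against vehicle tumours. Levels were 41.4, 53.7, 74.9 and 56.9 CPM in terminal combination, 51.2, 45.3, 42.5 and 61.9 CPM in regressing and 49.7, 84.8, 78.1 and 58.4 CPM in vehicle replicates 1 to 4. The regressing and vehicle groups overlapped, since vehicle 1 was below regressing 1 and 4, and regressing 4 was above vehicle 4. Means were 50.2 ± 8.56 CPM in regressing and 67.8 ± 16.4 CPM under vehicle (SD, n = 4 each), a log2 difference of -0.43 (SE 0.221, 95% interval -0.92 to 0.05, edgeR unadjusted p = 0.0751, adjusted p = 0.44). Terminal combination tumours averaged 56.7 ± 13.9 CPM, a log2 difference of -0.26 (SE 0.221, -0.74 to 0.23, edgeR adjusted p = 0.902) from vehicle. The interval of regressing against vehicle placed the fold difference between 0.53 and 1.04, so a rise above 1.04-fold lay outside it. Counts per gene do not separate the BIM isoforms.

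Bbc3 (ENSMUSG00000002083, chr7:16308393-16318205, plus strand) was low and steady, at 9.32, 5.48, 4.50 and 5.93 CPM in terminal combination, 6.31, 4.99, 4.84 and 5.32 CPM in regressing and 7.87, 5.72, 5.64 and 5.78 CPM in vehicle replicates 1 to 4. Replicate 1 was the highest of each group, and these 3 libraries all carry the title ending FFT, which the labels do not explain. Vehicle 2, the other library with that ending, was at 5.72 CPM, near vehicle 3 and 4. The log2 difference was 0.01 (95% interval -0.56 to 0.58) for terminal combination against vehicle and -0.22 (-0.79 to 0.35) for regressing against vehicle, with edgeR adjusted p of 0.997 and 0.745.

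Bcl2l11 and Bbc3 share a sequence feature, described here with motifs that were not chosen independently of the sequences. Both are known targets of FOXO factors, which AKT and ERK signalling restrain, and both have the forkhead motif GTAAACA (either strand) upstream of an annotated start. Promoter windows of 300 bases (RefSeq, GRCm38.p6) were searched for 9 of the 10 genes, 16 windows in all. Pmaip1 was not searched, so the counts over the 16 windows leave it out. The motif was held by 2 of the 16, against 3.65% of all 32851 windows. The Bcl2l11 match begins 227 bases before its start, outside the annotated gene, and the Bbc3 match 167 bases before a start that lies inside the gene. The stretches are shown 5′ to 3′ on the gene's strand with the match in capitals, at chr2:128125788-128125857 and chr7:16310054-16310140, both on the plus strand.
Bcl2l11: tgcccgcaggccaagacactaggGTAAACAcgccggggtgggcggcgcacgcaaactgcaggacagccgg
Bbc3: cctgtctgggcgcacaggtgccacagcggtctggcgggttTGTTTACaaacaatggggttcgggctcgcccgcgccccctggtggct
The E2F motifs TTTCGCGC and TTTGGCGC (either strand), sites for the factors that CDK4/6 activity releases from RB, were found in 0.813% of all windows and in 1 of the 16. That one belongs to Bcl2l1, 145 bases before an annotated start that lies inside the gene, at chr2:152830815-152830902 on the minus strand, again with the match in capitals.
Bcl2l1: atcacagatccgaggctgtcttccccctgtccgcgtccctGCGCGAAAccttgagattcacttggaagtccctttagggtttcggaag
A match of these letters describes the sequence and does not show binding. The motifs were chosen after the promoter windows had been seen, so the counts of windows with a match carry no test. Of the FOXO genes, Foxo3 stood at 179, 114, 101 and 98.1 CPM in terminal combination, 85.5, 85.4, 93.9 and 93.6 CPM in regressing and 103, 124, 60.2 and 101 CPM in vehicle replicates 1 to 4. Its terminal combination values lay above all regressing values, with a log2 difference of 0.46 (SE 0.237, edgeR adjusted p = 0.734). These 2 groups did not overlap for 3.9% of all genes. A link of Foxo3 to the members was not tested.

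Pmaip1 (ENSMUSG00000024521, chr18:66458533-66465565, plus strand) had the largest difference in size and the widest spread. It was at 9.42, 9.17, 4.25 and 7.64 CPM in terminal combination, 3.44, 4.82, 4.84 and 7.25 CPM in regressing and 6.67, 3.07, 22.6 and 8.64 CPM in vehicle replicates 1 to 4. The vehicle group held both the highest and the lowest tumour of the 12, 7.36-fold apart. The log2 difference of regressing from vehicle tumours was -1.01 (SE 0.521, 95% interval -2.15 to 0.13, edgeR unadjusted p = 0.0764, adjusted p = 0.44), and without vehicle 3 it was -0.26. That of terminal combination from vehicle tumours was -0.43 (SE 0.515, -1.56 to 0.70, edgeR adjusted p = 0.926), and without vehicle 3 it was 0.31. Terminal combination tumours were 0.58 above regressing tumours on the log2 scale (SE 0.518, -0.55 to 1.72, edgeR adjusted p = 0.817). Vehicle 3 was also the library in which Jun, a stress-activated AP-1 factor, reached 2071 CPM, where the other 11 libraries lay between 158 and 273 CPM.

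Bid (ENSMUSG00000004446, chr6:120891930-120916853, minus strand), which caspase-8 cleaves, was at 13.2, 7.09, 27.1 and 31.9 CPM in terminal combination, 15.4, 21.7, 21.9 and 19.4 CPM in regressing and 19.4, 12.3, 10.4 and 22.9 CPM in vehicle replicates 1 to 4. Terminal combination tumours spanned the full range of the 12, from the lowest in replicate 2 to the highest in replicate 4. The log2 difference was 0.29 (95% interval -0.62 to 1.20) for terminal combination against vehicle and 0.27 (-0.64 to 1.18) for regressing against vehicle, with edgeR adjusted p of 0.936 and 0.809. The gene overlaps Bcl2l13, itself of the BCL2 family, on the opposite strand, and the strand setting of the count is not given in the sources used here.

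Bmf (ENSMUSG00000040093, chr2:118528757-118549687, minus strand) was at 29.6, 23.95, 22 and 41.6 CPM in terminal combination, 33.2, 17.7, 12.4 and 51.3 CPM in regressing and 27.7, 51.1, 19.0 and 25.6 CPM in vehicle replicates 1 to 4. The highest and the lowest tumour both belonged to the regressing group, and regressing 1 and 4, its muscle-rich libraries, were above regressing 2 and 3. Outside that group, vehicle 2, lowest of all libraries in muscle markers at 619 CPM, held 51.1 CPM of Bmf. Terminal combination 2, with muscle markers at 36940 CPM, held 23.95 CPM. The log2 difference of regressing from vehicle tumours was -0.11 (SE 0.434, 95% interval -1.06 to 0.84, edgeR adjusted p = 0.931). Without the 3 muscle-rich libraries it was -1.04, with an edgeR unadjusted p of 0.0435 and an adjusted p of 1. That refit kept only regressing 2 and 3 of their group, its lowest in Bmf (17.7 and 12.4 CPM).

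**Figure D3:**
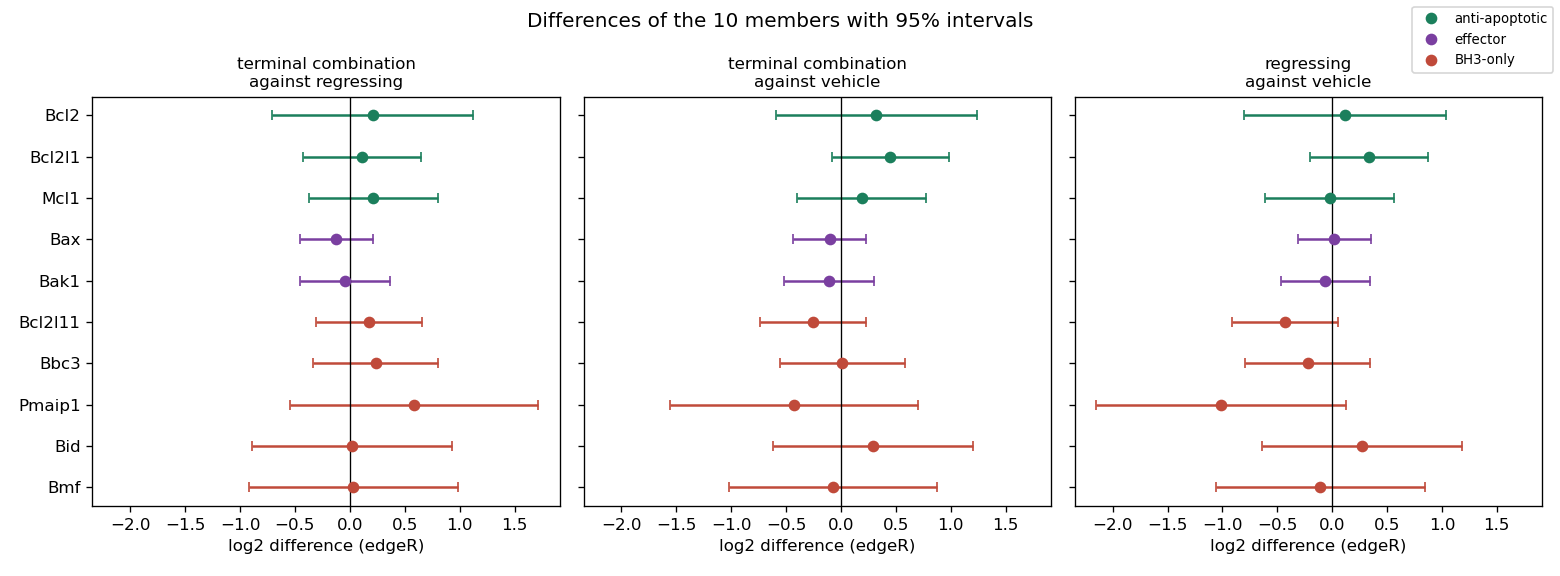
Log2 difference of each gene (point, edgeR) with its 95% interval (bar) in the 3 comparisons, the first-named group over the other, coloured by class. Every interval includes 0, and those of Bax and Bak1 are the narrowest.

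Setting the classes against each other, both treated groups had slightly higher anti-apoptotic and lower pro-apoptotic means than vehicle tumours, within the spread between tumours. The mean log2 CPM over Bcl2, Bcl2l1 and Mcl1 was 6.05 ± 0.30 in terminal combination, 5.92 ± 0.27 in regressing and 5.74 ± 0.26 in vehicle tumours (SD, n = 4 each). Over the 7 pro-apoptotic genes it was 4.57 ± 0.18, 4.46 ± 0.16 and 4.64 ± 0.11 in the same groups. The pro-apoptotic minus anti-apoptotic difference was -1.38, -2.06, -1.60 and -0.89 in terminal combination, -1.57, -1.49, -1.255 and -1.52 in regressing and -1.16, -1.535, -0.70 and -1.015 in vehicle replicates 1 to 4. Regressing tumours were the most alike, with an SD of 0.14 against 0.48 in terminal combination and 0.35 in vehicle tumours, and vehicle 2 lay among them. Terminal combination tumours lay on both sides, with replicate 2 lowest of the 12 and replicate 4 above every tumour but vehicle 3. From the fitted differences the balance was lower by 0.42 on the log2 scale in terminal combination and by 0.36 in regressing tumours than in vehicle tumours, and differed by -0.05 between the treated groups. Without vehicle 3 those differences from vehicle were -0.26 for terminal combination and -0.20 for regressing tumours, and without terminal combination 2 the difference of terminal combination tumours was -0.24. As the genes were chosen with results known, no test is given for these summaries.

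By sign, for terminal combination against vehicle, 3 of 3 anti-apoptotic genes had positive and 5 of 7 pro-apoptotic genes negative log2 differences, and 49.6% of all genes tested were negative. For regressing against vehicle the counts were 2 of 3 and 5 of 7, with 51.5% of all genes negative. Between the treated groups 8 of 10 genes, 3 of 3 anti-apoptotic ones included, were higher in terminal combination tumours, where 49.2% of all genes were lower. In length-adjusted terms Mcl1 made up 78.3% ± 8.31 of the summed anti-apoptotic FPKM in terminal combination, 78.4% ± 2.85 in regressing and 82.1% ± 3.48 in vehicle tumours. Bcl2l11 made up 29.9% ± 7.42, 29.1% ± 1.15 and 32.7% ± 5.29 of the summed BH3-only FPKM in those groups. The ratio of summed pro-apoptotic to summed anti-apoptotic FPKM was 1.19 ± 0.44, 1.30 ± 0.31 and 1.39 ± 0.22 in the same order. The balance in mean log2 CPM weights each gene equally and is not adjusted for length. Its negative values therefore do not mean more anti-apoptotic RNA.

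**Figure D4:**
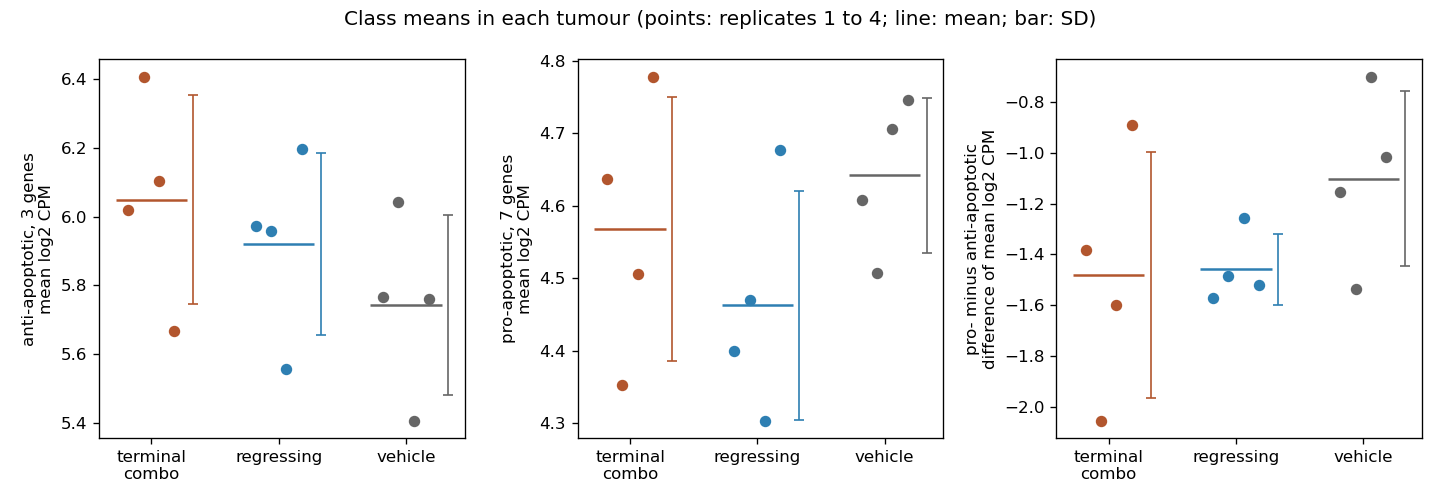
Mean log2 CPM of the 3 anti-apoptotic genes, of the 7 pro-apoptotic genes and their difference in each tumour (points), with group mean (line) and SD (bar). Regressing tumours lie between -1.57 and -1.255 in the right panel, within the range of -1.535 to -0.70 of vehicle tumours except for regressing 1.

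Single tumours held several of the extreme values. Terminal combination 2 combined the highest Bcl2l1 of the 12 (95.6 CPM) with the lowest Bak1 (69.8 CPM) and Bid (7.09 CPM), and terminal combination 3 the highest Bcl2 (41.4 CPM) with the lowest Mcl1 (134 CPM), Bax (33.4 CPM) and Bbc3 (4.50 CPM). Vehicle 3 had the lowest Bcl2 (10.98 CPM) and Bcl2l1 (36.2 CPM) and the highest Pmaip1 (22.6 CPM), and had the highest balance in mean log2 CPM. By summed FPKM its pro-apoptotic over anti-apoptotic ratio was 1.47, below those of regressing 3 (1.61) and vehicle 4 (1.61), among others. Bcl2 and Bcl2l11 were both highest of their group in terminal combination 3, regressing 4 and vehicle 2.

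The rest of the family, with 13 of 15 listed genes tested, had no edgeR call in any comparison, against 0% of all genes. Its median log2 difference was -0.01 for terminal combination against vehicle, 0.34 for regressing against vehicle and, between terminal combination and regressing tumours, -0.37, beside 0.00, -0.02 and 0.01 over all genes. Bcl2l2, which encodes the anti-apoptotic BCL-W, averaged 29.9 ± 7.61 CPM in terminal combination, 25.96 ± 7.43 CPM in regressing and 21.4 ± 3.46 CPM under vehicle (SD, n = 4 each), a log2 difference of 0.49 (SE 0.242) for terminal combination against vehicle. Bcl2l14 and Bcl2l15, relatives of uncertain function, were near the count floor, at 0.322 ± 0.200 and 0.169 ± 0.200 CPM in terminal combination, 1.58 ± 2.47 and 0.971 ± 0.687 CPM in regressing and 0.559 ± 0.327 and 0.294 ± 0.294 CPM under vehicle. Regressing 4 alone held 5.25 CPM of Bcl2l14. The 3 copies of Bcl2a1 are close paralogs whose reads cannot be assigned to one copy with certainty.

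Downstream of the mitochondria, 0 of 11 apoptosome and release genes, 0 of 9 caspases and 0 of 9 inhibitors of apoptosis passed the adjusted edgeR test in any comparison. The share over all genes was also 0%, so these counts and those of the lists below do not set a list apart. Casp2, an initiator caspase, lay below every vehicle tumour in all 8 treated tumours: 33.8, 28.4, 30.5 and 34.3 CPM in terminal combination and 27.1, 29.2, 30.9 and 33.6 CPM in regressing against 45.8, 36.3, 36.9 and 40.5 CPM under vehicle. Its log2 difference from vehicle was -0.33 (SE 0.133, edgeR unadjusted p = 0.0296, adjusted p = 0.819) in terminal combination and -0.40 (SE 0.133, unadjusted p = 0.011, adjusted p = 0.277) in regressing tumours. Of all genes, 2.5% and 7.64% did not overlap in these comparisons, and 5.94% and 12.7% had an unadjusted edgeR p under 0.05. The share for all 8 treated tumours together was not computed. Casp2 was named for its small p within the list. Casp6, an executioner, averaged 30.6 ± 9.97, 21.5 ± 3.50 and 40.2 ± 17.5 CPM in terminal combination, regressing and vehicle tumours, and Casp4, an inflammatory caspase, 8.80 ± 1.88, 14.0 ± 5.02 and 7.81 ± 1.93 CPM. Birc3 and Birc2, the cellular IAPs, averaged 41.8 ± 22.7 and 30.6 ± 16.5 CPM in regressing against 23.8 ± 3.82 and 18.3 ± 3.63 CPM under vehicle, with regressing 4 at 74.7 and 54.8 CPM. Birc5, the mitotic protein survivin, averaged 41.4 ± 24.6 CPM in terminal combination, 58.5 ± 30.3 CPM in regressing and 78.7 ± 25.1 CPM under vehicle. Vdac3, an outer membrane channel, was at 140 ± 26.7, 174 ± 29.3 and 139 ± 14.5 CPM, Htra2, a protease released with cytochrome c, at 50.7 ± 8.29, 55.7 ± 6.90 and 64.6 ± 16.03 CPM, and Aifm1, a mitochondrial flavoprotein, at 32.4 ± 10.2, 36.6 ± 7.72 and 43.3 ± 7.02 CPM in the same order of groups.

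Of 13 death receptor and adaptor genes tested, 0 passed the adjusted edgeR test, against 0% of all genes. Cflar, which encodes the caspase-8 inhibitor FLIP, was at 113, 153, 97.5 and 130 CPM in terminal combination, 89.1, 108, 114 and 114 CPM in regressing and 105, 78.6, 59.0 and 84.0 CPM in vehicle replicates 1 to 4. Terminal combination tumours overlapped vehicle tumours through vehicle 1, with a log2 difference of 0.60 (SE 0.192, edgeR unadjusted p = 0.00962, adjusted p = 0.819). Tnfrsf21, death receptor 6, averaged 99.3 ± 75.6 CPM in terminal combination, 55.1 ± 19.8 CPM in regressing and 35.1 ± 4.72 CPM under vehicle, and terminal combination 2 (199 CPM) and 4 (116 CPM) held the high values. Tnf averaged 0.545 ± 0.313, 1.61 ± 1.12 and 1.30 ± 1.03 CPM in terminal combination, regressing and vehicle tumours.

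**Figure D5:**
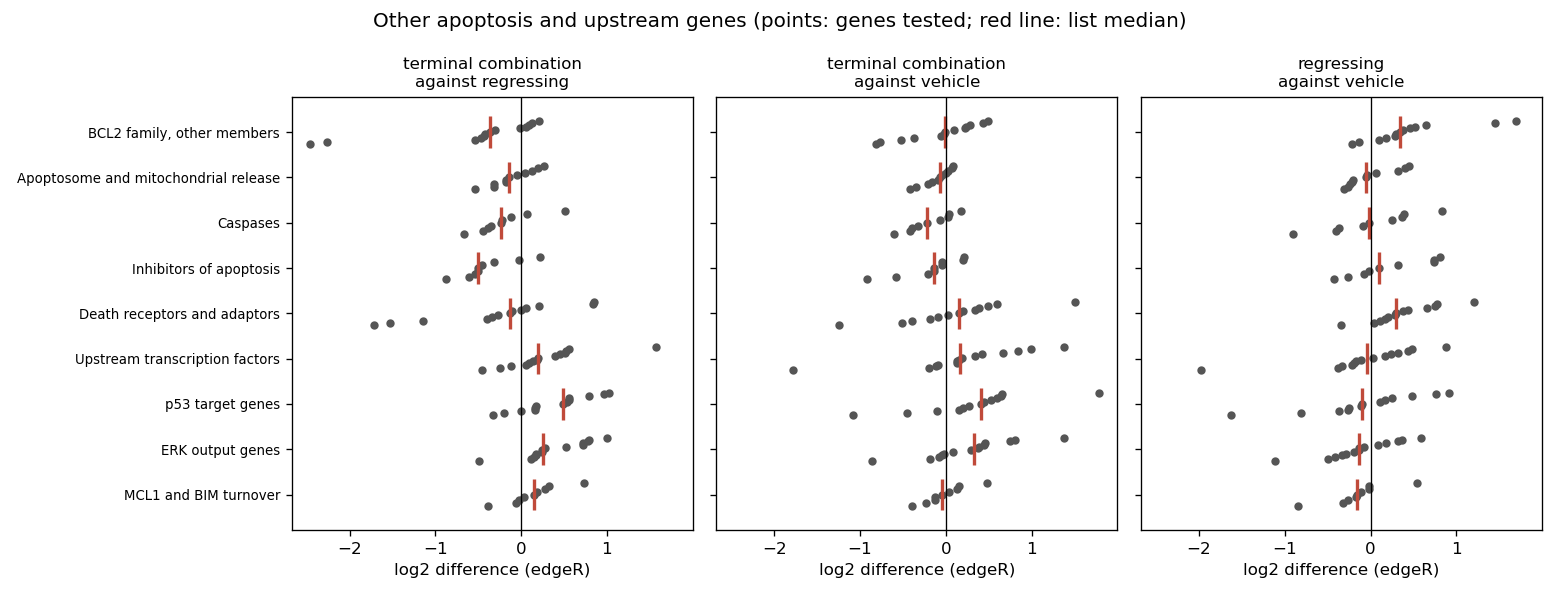
Log2 difference (edgeR) of every tested gene on 9 lists of other apoptosis and upstream genes (points) with the list median (red line) in the 3 comparisons. No gene shown passed the adjusted edgeR test, and neither did any other gene tested. List medians lie between -0.50 and 0.49.

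Upstream of the family, Trp53, which encodes p53, averaged 202 ± 67.3 CPM in terminal combination, 194 ± 59.7 CPM in regressing and 218 ± 66.8 CPM under vehicle. Of 13 p53 target genes tested 0 passed, against 0% of all genes. Their median log2 difference was 0.41 for terminal combination against vehicle, -0.10 for regressing against vehicle and, between terminal combination and regressing tumours, 0.49, beside 0.00, -0.02 and 0.01 over all genes. Cdkn1a, the cell cycle inhibitor p21, averaged 162 ± 39.5, 83.1 ± 21.99 and 146 ± 106 CPM in terminal combination, regressing and vehicle tumours, and its lowest terminal combination tumour (133 CPM) lay above its highest regressing tumour (108 CPM). Ccng1, cyclin G1, averaged 237 ± 102 CPM in terminal combination, 297 ± 129 CPM in regressing and 158 ± 35.5 CPM under vehicle, and regressing and vehicle tumours did not overlap (log2 difference 0.91, SE 0.336, edgeR adjusted p = 0.299). Of all genes, 3.9% did not overlap between terminal combination and regressing tumours, and 7.64% between regressing and vehicle tumours. Mdm2, which degrades p53, averaged 83.0 ± 31.4, 59.1 ± 7.92 and 52.7 ± 6.61 CPM and Btg2, an antiproliferative gene, 54.3 ± 13.6, 37.5 ± 18.9 and 115 ± 129 CPM in terminal combination, regressing and vehicle tumours.

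Of 14 transcription factors upstream of the family 0 passed, against 0% of all genes. Jun averaged 200 ± 39.5 CPM in terminal combination, 174 ± 10.7 CPM in regressing and 687 ± 923 CPM under vehicle, the last resting on vehicle 3. Rela, the NF-kappaB subunit p65, averaged 304 ± 378 CPM in terminal combination against 102 ± 7.12 CPM in regressing and 117 ± 28.9 CPM under vehicle, resting on terminal combination 4 at 870 CPM. Foxo4 averaged 47.0 ± 12.6, 64.6 ± 41.8 and 35.1 ± 7.66 CPM in terminal combination, regressing and vehicle tumours, with regressing 1 at 124 CPM.

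ERK output genes, which ERK signalling is known to induce, had 0 calls among 14 tested, against 0% of all genes. Their median log2 difference was 0.33 for terminal combination against vehicle, -0.13 for regressing against vehicle and, between terminal combination and regressing tumours, 0.26, beside 0.00, -0.02 and 0.01 over all genes. In terminal combination 13 of 14 were higher than in regressing tumours, where 49.2% of all genes were lower. These genes share a regulator, so their signs are not independent, and the count carries no test. Dusp6, an ERK phosphatase induced by ERK itself, was at 130, 184, 332 and 67.3 CPM in terminal combination, 103, 111, 129 and 70.9 CPM in regressing and 120, 180, 136 and 147 CPM in vehicle replicates 1 to 4. Terminal combination 3 was highest of the 12, and regressing tumours overlapped vehicle tumours through regressing 3 (log2 difference -0.49, SE 0.386, edgeR adjusted p = 0.613). Spry4, another ERK-induced inhibitor, averaged 73.6 ± 31.7, 60.9 ± 15.5 and 53.7 ± 38.5 CPM, Dusp4 47.2 ± 15.5, 27.2 ± 15.4 and 36.3 ± 12.7 CPM and Phlda1 59.4 ± 17.4, 41.4 ± 9.41 and 45.4 ± 9.91 CPM in terminal combination, regressing and vehicle tumours. Mki67, the proliferation antigen Ki-67, averaged 48.4 ± 23.4, 44.1 ± 14.7 and 123 ± 48.2 CPM in the same groups.

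Genes that govern BIM and MCL1 protein gave 0 calls among 9 tested, against 0% of all genes. Fbxw7, a ubiquitin ligase component for MCL1, averaged 15.5 ± 6.35 CPM in terminal combination, 9.39 ± 2.56 CPM in regressing and 16.9 ± 6.03 CPM under vehicle, a log2 difference of -0.85 (SE 0.334, edgeR adjusted p = 0.327) for regressing against vehicle. Dynll2, the dynein light chain that holds BMF, averaged 146 ± 26.4, 152 ± 18.3 and 105 ± 21.3 CPM, and Dynll1, which holds BIM, 224 ± 22.4, 196 ± 30.0 and 245 ± 42.9 CPM in terminal combination, regressing and vehicle tumours.

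By pattern over the 12 tumours, the 3 protein-coding genes most like Mcl1 were Tbl1xr1, Il6ra and Lysmd1, with Pearson r of 0.932, 0.927 and 0.909 in log2 CPM. Those most like Bcl2l11 were H2afy, Brwd3 and Cox15 (0.871, 0.837 and 0.831), and those most like Bcl2 were Etnk1, Il1rap and Dmrta1 (0.814, 0.804 and 0.781). These are the highest of 13748 genes compared and carry no test.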

How the data were processed

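Each of the 12 deposited files gives unnormalized counts per Ensembl identifier, all whole numbers, made from TruSeq stranded mRNA libraries per the labels. The submitters' processing notes name HISAT2 2.2.1, Salmon and DESeq2 1.24.0 and the builds mm10 and GRCm38.p6; the counting tool, strand setting and annotation release are not given in the sources used here. Symbols, positions and exon lengths came from GENCODE M21 (GRCm38), which held 54409 of the 54532 identifiers. Groups were read from the titles. No libraries were duplicates (lowest chi-square per degree of freedom 56.8).

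After filterByExpr (settings of 10 for the minimum count and 15 for the total) and TMM scaling, edgeR's quasi-likelihood F test was run in 1 fit of all 12 libraries, with Benjamini-Hochberg adjustment over 15650 genes and a threshold of 0.05. SEs come from the log2 difference and its F statistic, 95% intervals from these and the model's degrees of freedom. CPM and FPKM use TMM-adjusted library sizes, and log2 CPM a prior count of 2. Alternatives were DESeq2, limma voom, other scaling and filter settings, covariates and leaving out libraries. The members and lists were chosen with earlier results of these data known. All 10 members, up to 3 genes of each other list with the smallest p, 6 upstream genes and the 3 genes most like Bcl2, Mcl1 and Bcl2l11 were named by rule. Versions were R 4.3.3, edgeR 4.0.16, limma 3.58.1, DESeq2 1.42.0, Python 3.11.15, pandas 2.3.3 and matplotlib 3.10.9.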

Additional observations from a re-analysis of the deposited data

Results flagged for a closer look

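In 129 sets of 4 tumours (each named gene and the class balance in each group) a single tumour stood apart from the other 3 in 8 sets by Dixon's test, which chance alone flags in about 1 of 20. Within the family these were Bax in vehicle 4 (48.6 CPM) and Bbc3 in vehicle 1 (7.87 CPM). Vehicle 3 was high in Jun (2071 CPM) and in Casp6 (66.2 CPM). Terminal combination 4 was high in Rela (870 CPM), vehicle 4 in Dynll2 (136.5 CPM) and regressing 4 in Bcl2l14 (5.25 CPM). Regressing 4 was low in Dynll1 (152 CPM).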

How the results depend on the processing

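No member was called under any of 23 alternatives (smallest adjusted p 0.329), while DESeq2 called 495, 11 and 82 of all genes for regressing against vehicle, terminal combination against vehicle and terminal combination against regressing, where edgeR called 0. The class balance moved by less than 1 SD, pooled over the tumours of the groups compared, in each. That margin was close to, or above, the size of the balance differences themselves, so it does not show that they held. Of 660 recomputed member differences 599 kept their sign and 61, all short of the test, did not; the cause was not tested. For terminal combination against vehicle the other sign was seen with library size only for Bbc3 (-0.061), in limma voom for Bbc3 (-0.0443) and Bmf (0.00597), with the title ending as covariate for Bmf (0.0886), in libraries lacking the ending FFT for Mcl1 (-0.0442) and Bbc3 (-0.11) and Bmf (0.39), with the muscle covariate for Bak1 (0.0944) and Bbc3 (-0.0195). Leaving out each library in turn gave Mcl1 -0.0789 to 0.36, Bbc3 -0.24 to 0.14, Bmf -0.29 to 0.28, Bid -0.0385 to 0.57, Pmaip1 -0.73 to 0.31. For regressing against vehicle the other sign was seen with library size only for Bax (-0.0591), without the filter for Bax (-0.00235), with the title ending as covariate for Mcl1 (0.0578) and Bmf (0.0408), in libraries lacking the ending FFT for Bax (-0.0398) and Bmf (0.28), with the muscle covariate for Bak1 (0.19), without the 3 muscle-rich libraries for Bcl2 (-0.18) and Bak1 (0.14). Leaving out each library in turn gave Bak1 -0.20 to 0.046, Mcl1 -0.13 to 0.0973, Bax -0.0487 to 0.12, Bmf -0.55 to 0.24, Bcl2 -0.16 to 0.60. For terminal combination against regressing the other sign was seen in limma voom for Bid (-0.20), with only the 2 groups fitted for Bid (-0.00463), without the 3 muscle-rich libraries for Bcl2l1 (-0.21). Leaving out each library in turn gave Mcl1 -0.0526 to 0.37, Bbc3 -0.0166 to 0.35, Bcl2l1 -0.20 to 0.24, Bak1 -0.14 to 0.089, Bcl2 -0.12 to 0.48, Bcl2l11 -0.00217 to 0.30, Bid -0.31 to 0.30, Bmf -0.22 to 0.47. Without vehicle 3, Pmaip1 differed by -0.26 for regressing against vehicle, in place of -1.01. No paired analysis was possible because each pair of groups shares at most 1 of the numbers in the titles, and the labels do not say that a number marks a pair. For terminal combination against vehicle, Bcl2l11 differed by -0.13 to -0.42 over the libraries left out, and Bbc3 for regressing against vehicle by -0.0754 without vehicle 1. With 4 tumours a group, the intervals of Bcl2, Bid and Bmf reached past 0.5 on the log2 scale on both sides in all 3 comparisons.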
